A study of Mus musculus with 11 samples.

Results

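The comparison described here set beta cells sorted as NNAT-negative against non-beta cells from the islets of the same mice, with emphasis on the genes that were higher in beta cells. Members were taken by label, 7 of the 11 RNA-seq libraries of the series: 4 of NNAT-negative beta cells, from 4 mice, and 3 of non-beta cells. The other 4 libraries, labelled NNAT-positive beta cells, entered the fit of the model and are otherwise shown only where they are named. All mice were male, fed on chow, of strain C57BL6/J and 10 weeks old by the labels, whereas the paper's text gives a younger age for the sorted cells. All fractions, non-beta cells included, came from mice that carried RIP-Cre (Cre under the rat insulin promoter), STOP-tdTomato and Nnat-EGFP. This Cre switches on tdTomato, a red fluorescent protein, so the sort itself defined beta cells by insulin promoter activity at any time in their history. The green fluorescent protein comes from a bacterial artificial chromosome that carries the *Nnat* promoter and upstream enhancers, so NNAT-positive and NNAT-negative refer to this reporter and not to the endogenous protein. The sources name no gate that separated the cell types of the non-beta fraction from each other. Mice 1, 2 and 3 gave both fractions, and mouse 4 gave no non-beta library. The labels were kept here throughout, although a supplementary table of the paper names the NNAT-negative and NNAT-positive beta fractions the other way round. "Beta cells" below means the 4 libraries labelled NNAT-negative.

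Pancreatic beta cells make, store and secrete insulin. They take up and phosphorylate glucose in proportion to its concentration, the ATP made in mitochondria closes a potassium channel, and calcium entry then releases insulin granules. The other endocrine cells of the islet are the alpha cells (glucagon), delta cells (somatostatin) and PP cells (pancreatic polypeptide), and an islet preparation also holds endothelial, immune and stromal cells and acinar cells of the surrounding tissue. Mature beta cells are known to keep some widely used genes, called disallowed genes, at a very low level.

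The sort was checked first on its markers, in CPM (counts scaled to library size, here with TMM factors). *Ins1* (chr19:52264297-52265476, plus strand, GRCm38), a rodent insulin gene, had 75961, 117417, 82048 and 42090.1 CPM in beta cells (mice 1 to 4, in this order throughout) and 2391, 2639 and 6578 CPM in non-beta cells (mice 1 to 3). *Ins2* (chr7:142678656-142743381, minus strand), the other insulin gene, had 189109, 277591, 195905 and 115640 CPM in beta cells and 6383, 7009 and 16079 CPM in non-beta cells. The groups did not overlap for either gene, the beta cells of mouse 4 were the lowest among beta cells, and the non-beta cells of mouse 3 were the highest among non-beta cells. The log2 fold change, beta minus non-beta, was 4.65 (SE 0.32) for *Ins1* and 4.55 (SE 0.29) for *Ins2*, but insulin promoter activity was what the sort used, so these values describe the sort. *Gcg* (chr2:62474530-62483650, minus strand), which encodes glucagon, had 1401, 1039, 1906 and 1133 CPM in beta cells and 118989, 166526 and 143729 CPM in non-beta cells, a log2 fold change of −6.69 (SE 0.23). *Sst* (chr16:23889573-23890958, minus strand), which encodes somatostatin, had 516, 1015, 776 and 661 CPM in beta cells and 6421, 12755 and 12169 CPM in non-beta cells, a log2 fold change of −3.69 (SE 0.19). The 2 markers of other endocrine cells were thus lower in every beta cell library than in any non-beta library, and glucagon RNA remained above 1000 CPM in beta cells.

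*Nnat* (chr2:157560078-157562522, plus strand), whose reporter defined the fraction, had 74.7, 80.8, 66.4 and 153 CPM in beta cells and 12.9, 29.8 and 17.4 CPM in non-beta cells (log2 fold change 1.93 (SE 0.20), adjusted *p*=2.75e-05, edgeR). Libraries with the NNAT-positive label held 50.5, 46.4, 46 and 101 CPM, lower than in the library labelled NNAT-negative of the same mouse in 4 of 4 mice. *Nnat* RNA therefore went against the labels of the beta cell fractions, and the values below are those of the libraries labelled NNAT-negative. With the naming of the supplementary table, 1068 genes were called higher and 2697 lower in that fraction against non-beta cells. The median log2 fold change then became −2.82 in place of −4.44 for delta cell markers. For PP and epsilon cell markers it became −3.025 in place of −4.46. *Sst* had 1841, 1980, 2401 and 1321 CPM in libraries labelled NNAT-positive, above the library labelled NNAT-negative of each mouse. The paper reports *Sst* as lower in its NNAT-positive beta cells.

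**Figure D1:**
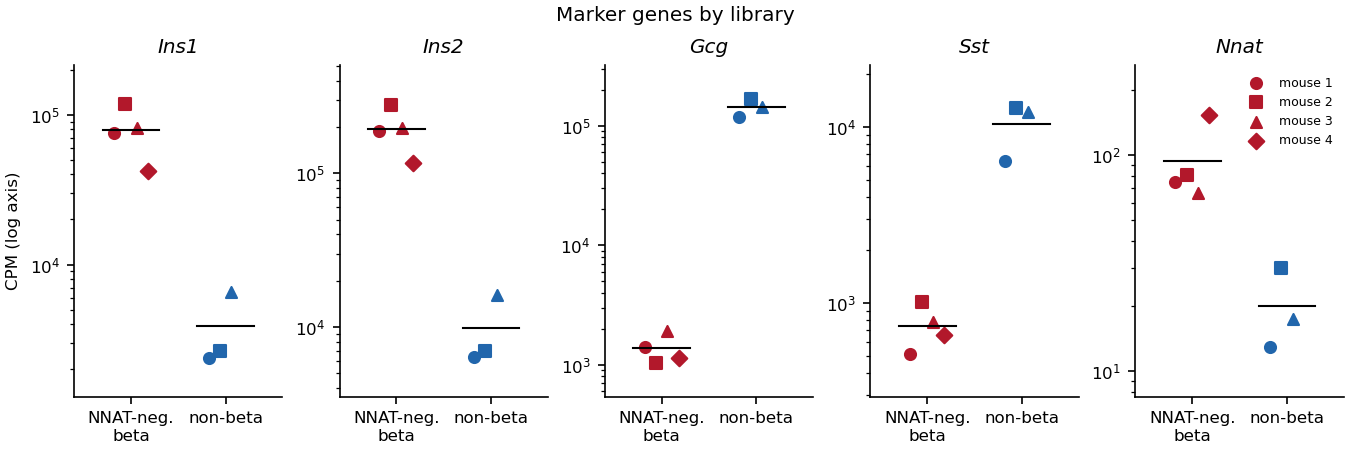
Level of *Ins1*, *Ins2*, *Gcg*, *Sst* and *Nnat* in each library (CPM, log axis), with a symbol for each mouse, red for NNAT-negative beta cells (*n*=4), blue for non-beta cells (*n*=3) and a line at the mean. The groups do not overlap for any of the 5 genes, and *Nnat* is highest in the beta cells of mouse 4.

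Total counts were between 30420352 and 40834007 in the 7 libraries. Both insulin genes together took 25.5%, 34.4%, 26% and 17.8% of all counts in the beta cells of mice 1 to 4 and 0.995%, 0.97% and 2.34% in non-beta cells, so the share left for other genes differed between the fractions before scaling. In beta cells 15450 to 20434 genes had at least 1 count, with mouse 4 the highest, and in non-beta cells 19754 to 20905. Libraries correlated by a mean *r* of 0.951 within beta cells, 0.954 within non-beta cells and 0.721 between them (Pearson, log2 CPM across genes, which are not independent replicates). In these bulk libraries, fewer cells of a type and less RNA per cell cannot be told apart.

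The non-beta fraction held RNA of several cell types. In mice 1 to 3, the 18 acinar markers summed to 21315, 84246 and 67171 CPM in non-beta cells, and to 69.9, 227, 128 and 602 CPM in the beta cells of mice 1 to 4. The 15 endothelial markers summed to 2823 to 3142 CPM in non-beta cells and 5.87 to 12.6 CPM in beta cells. The 17 immune markers summed to 1652 to 3652 CPM against 65.3 to 83.6 CPM, and the 16 stellate, mural and Schwann cell markers to 3988 to 9085 CPM against 7.06 to 16 CPM. A gene lower in beta cells can thus be a gene of any of these types, and the part that each type had in a given difference was not tested. *Cdh5* (endothelial), *Acta2* (mural) and *Lepr* (delta cells) had 0 counts in all 4 beta cell libraries, which allows up to 0.102 CPM in any of them at a floor of 3 counts.

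Of 17424 genes tested, 1076 (6.18%) were called higher and 2980 (17.1%) lower in beta cells, at an adjusted *p* below 0.01 and more than 2-fold, together 23.3%. For 47.4% of tested genes the libraries of the 2 fractions did not overlap. The median log2 fold change of all tested genes was −0.127. The calls were unlike in size: genes called higher had a median log2 fold change of 1.52 and genes called lower one of −5.79. Of all genes called higher 80 were over 16-fold and 19 over 64-fold higher, the latter at 8.11 CPM or less in beta cells, and of those called lower 1841 and 1448. Among the genes called higher 907 had at least 10 CPM in beta cells. None of these exceeded 32-fold, and 38 were over 16-fold, with a largest log2 fold change of 4.82 (*Prss53*). The insulin genes, on whose promoter activity the sort rested, came near this value, with 4.65 (*Ins1*) and 4.55 (*Ins2*). Insulin genes took 0.97% to 2.34% of counts in non-beta cells. Whether beta cell RNA in the non-beta fraction limited the upward changes was not tested. The sizes of upward and downward changes therefore do not compare how restricted the genes are. Of the genes called lower 487 had 0 counts in all 4 beta cell libraries. The 1076 genes were higher in all 3 mice with both fractions in 1075 cases, and the 2980 genes were lower in all 3 mice in every case. Among the 98 genes over 8-fold higher with at least 10 CPM in beta cells, the difference was smallest in mouse 3 for 70, in mouse 2 for 20 and in mouse 1 for 8. The non-beta cells of mouse 3 also held the most insulin RNA, and the part of that share in these differences was not tested. A stricter test of change beyond 2-fold (glmTreat) called 552 genes higher and 2211 lower.

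**Figure D2:**
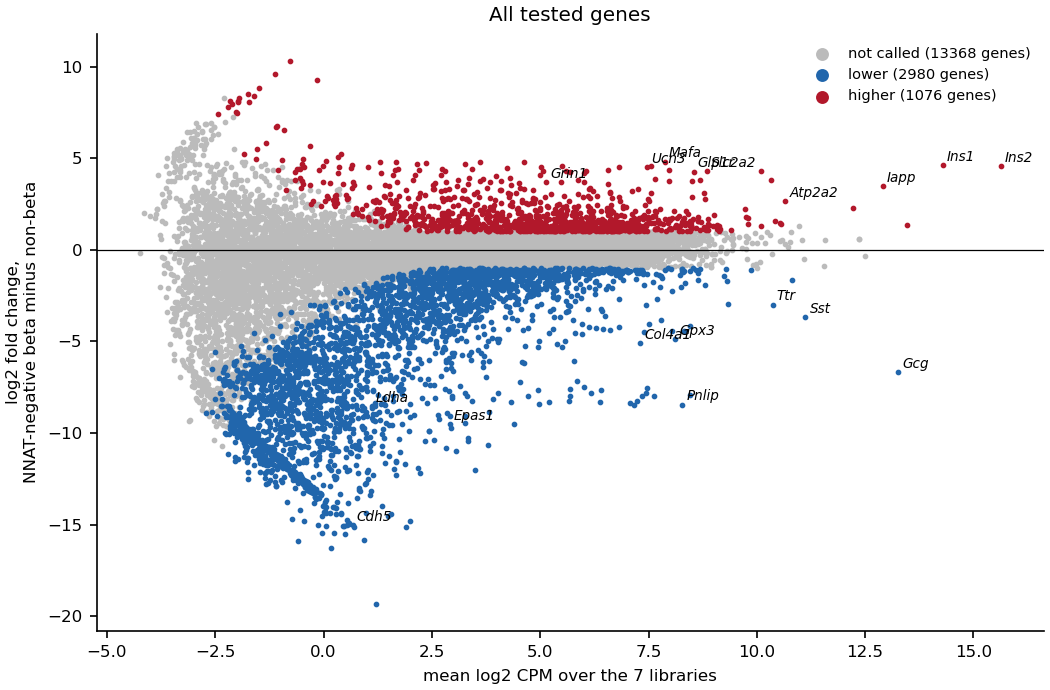
Log2 fold change, beta minus non-beta, of the 17424 tested genes against their mean log2 CPM over the 7 libraries, with 1076 genes called higher in red, 2980 called lower in blue and the others in grey. Red points at high levels stop below 5 on the log2 scale, whereas blue points reach below −15, where the fitted value of a gene with 0 counts in beta cells depends on the prior count.

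The smallest *p* among genes called higher with at least 10 CPM belonged to *Grin1*, a subunit of the NMDA glutamate receptor. It had 122, 96.7, 108 and 84.1 CPM in beta cells and 8.3, 7.94 and 9.24 CPM in non-beta cells, that is, 3.68 (SE 0.10) on the log2 scale (adjusted *p*=1.45e-08, edgeR), although 1307 of its exonic bases also lie in the antisense gene *Grin1os*. It was followed by *Prss53* (a protease, log2 fold change 4.82), *Adra2a* (the adrenergic receptor through which adrenaline restrains insulin release, 3.34), *Pde5a* (a cGMP phosphodiesterase, 3.23) and *Mnx1* (a homeobox factor, 4.41). The 15 genes of smallest *p* also held *Cntnap2* (4.24), a neuronal adhesion protein, *Atp2a2* (2.64), the SERCA2 pump that fills the endoplasmic reticulum (ER) with calcium, *Insrr* (2.78), a relative of the insulin receptor, and *Adgrl3* (3.37), an adhesion receptor. *Prss53* shares 1636 exonic bases with the readthrough gene *Gm21974* on its strand, so its level is uncertain. *Atp2a2* was the most abundant of these genes, with 3739.6, 3501, 3932 and 2665 CPM in beta cells against 571, 553 and 671 CPM in non-beta cells.

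All gene lists were chosen with earlier results of these data known, so their shares of calls describe the lists only. Granule cargo and prohormone processing formed the first gene list. Of its 21 genes, all tested, 11 were called higher and 0 lower (52.4% and 0%, against 6.18% and 17.1% of all tested genes). The median log2 fold change was 1.22 (all genes, −0.127). The list holds both insulin genes, which the sort used, and with the hormone genes left out of the fit 8 of the remaining members were called higher and the median was 0.80. *Iapp*, the amyloid peptide co-secreted with insulin, had 21297, 24722, 21383 and 17277 CPM in beta cells and 1449, 2137 and 2647 CPM in non-beta cells (log2 fold change 3.47 (SE 0.16), adjusted *p*=1.27e-07, edgeR). *Pcsk1*, the convertase that cuts proinsulin, had 1264, 1183, 1383 and 1268 CPM against 73.8, 82.6 and 125 CPM, 14.1-fold higher. Both genes were above every non-beta library in each beta cell library. *Sytl4* (granuphilin, which docks granules) rose 23.9-fold, *Scg2* (secretogranin II) 4.93-fold, *Scg3* 2.74-fold, *Chga* (chromogranin A) 2.57-fold and *Slc30a8* (the zinc transporter of the granule) 2.63-fold. *Pcsk2*, *Chgb*, *Cpe* and *Pam* were not called. *Pcsk2*, a convertase that also makes glucagon, had 5140.1 ± 1015 CPM in beta cells (SD, *n*=4) and 7070.5 ± 944 CPM in non-beta cells (SD, *n*=3). *Chgb* had a log2 fold change of 0.18 (SE 0.13) and *Cpe*, the carboxypeptidase that trims prohormones, one of 0.59 (SE 0.09). *Pam*, which amidates peptides, had a log2 fold change of −0.79 (SE 0.09). *Cpe* and *Pam* passed the adjusted *p* but not the fold threshold.

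Upstream sequences are shown for the hormone genes *Ins1* and *Iapp*, called higher in beta cells, and *Gcg*, called lower. Each run covers bases 250 to 11 before the RefSeq start (build GRCm38.p6, 5′ to 3′ on the strand of the gene). Capitals mark TAAT, the core bound by homeodomain factors such as PDX1 and NKX6-1, and CATCTG, an E-box of the kind bound by NEUROD1, on both strands (ATTA and CAGATG). The sequences were chr19:52264047-52264286 (plus strand), chr6:142298175-142298414 (plus strand) and chr2:62483664-62483903 (minus strand):
Ins1: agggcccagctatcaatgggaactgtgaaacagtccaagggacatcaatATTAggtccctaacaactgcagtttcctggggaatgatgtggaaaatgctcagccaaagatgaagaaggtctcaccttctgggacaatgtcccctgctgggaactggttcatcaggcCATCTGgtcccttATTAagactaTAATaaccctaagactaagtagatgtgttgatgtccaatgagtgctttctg
Iapp: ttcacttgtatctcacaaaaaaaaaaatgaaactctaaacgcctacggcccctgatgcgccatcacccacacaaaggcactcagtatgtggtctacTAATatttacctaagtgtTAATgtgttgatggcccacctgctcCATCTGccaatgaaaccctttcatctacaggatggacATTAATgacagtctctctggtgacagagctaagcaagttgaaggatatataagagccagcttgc
Gcg: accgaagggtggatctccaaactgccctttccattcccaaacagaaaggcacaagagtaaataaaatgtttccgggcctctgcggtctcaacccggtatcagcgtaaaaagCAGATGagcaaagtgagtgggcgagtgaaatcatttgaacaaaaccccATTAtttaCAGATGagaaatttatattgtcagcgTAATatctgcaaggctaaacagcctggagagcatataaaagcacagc
*Ins1* held 3 TAAT matches and 1 CATCTG match, *Iapp* 4 and 1 (2 of the 4 overlap), and *Gcg* 2 and 2, so the letters occurred on both sides of the contrast. TAAT occurred in 54.2% of all windows of this length in the RefSeq table, in 41.6% of the 1073 windows of genes called higher, in 41.8% of the 2880 of genes called lower and in 40.5% of those of all tested genes. CATCTG occurred in 14.1% of all windows, 11% of those of genes called higher, 13.1% of those of genes called lower and 10.4% of those of tested genes. A match describes letters and is not a binding site.

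Of 27 beta cell transcription factors 25 were tested. Of these, 11 were called higher and 0 lower (44% and 0%, against 6.18% and 17.1% of all tested genes). With DESeq2 1 was called lower. The median log2 fold change was 0.91, against −0.127 for all genes. *Mafa*, which activates insulin genes in mature beta cells, had 1167, 959, 999 and 747 CPM in beta cells and 30.1, 25.4 and 61.9 CPM in non-beta cells, that is, 4.82 (SE 0.26) on the log2 scale (adjusted *p*=3.12e-07, edgeR). *Nkx6-1*, a homeobox factor of beta cell identity, had 828, 857, 766 and 540.0 CPM against 44.9, 54.8 and 86.3 CPM (3.74 (SE 0.20)), and *Pdx1*, the homeobox factor that binds the insulin promoter, 256, 268, 269 and 179.8 CPM against 21.9, 35.7 and 33.2 CPM (3.16 (SE 0.14)). *Mnx1* had 40.8, 43.5, 34.9 and 37.2 CPM against 1.79, 1.8 and 2.07 CPM, 21.2-fold higher. *Mlxipl* (ChREBP, a glucose-sensing factor) had a log2 fold change of 2.94, but its 106, 70.5, 109 and 347 CPM in beta cells set mouse 4 apart. *Esrrg* (2.14), *Insm1* (1.88), *Glis3* (1.54), *Tshz1* (1.25) and *Neurod1* (1.10) were also called higher. *Pax6*, *Nkx2-2* and *Isl1*, homeobox factors of islet endocrine cells, were not called. *Pax6* had a log2 fold change of 0.92 (SE 0.10) and *Nkx2-2* one of 0.91 (SE 0.12), both past the adjusted *p* and short of 2-fold. *Isl1* had 125 ± 42.6 CPM in beta cells (SD, *n*=4) and 127 ± 13.2 CPM in non-beta cells (SD, *n*=3), with a fitted log2 change of −0.27 (SE 0.11) (adjusted *p*=0.0636, edgeR). *Neurod1* lost its call without mouse 1, with a log2 fold change of 0.95.

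Of 16 tested transcription factors of other lineages, acinar ones among them, 14 were called lower and 1 higher. These were 87.5% and 6.25%, against 17.1% and 6.18% of all tested genes. The median log2 fold change was −5.90 (−5.53 with *Ptf1a*, an acinar factor at 0 counts in beta cells, set to the floor of 3 counts). *Irx2*, a factor of alpha cells, was 53-fold lower. *Hhex*, required for delta cells, was 21-fold lower. The member called against the others was *Bhlha15* (MIST1, known from acinar and other secretory cells), with 66.6, 59.4, 107 and 80.2 CPM in beta cells and 12.9, 23.4 and 20.5 CPM in non-beta cells (log2 fold change 2.00 (SE 0.21), adjusted *p*=2.30e-05, edgeR). It was higher in every beta cell library, although the summed acinar markers were lower in all of them.

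Of 11 genes of glucose uptake and phosphorylation, 3 were called higher and 4 lower (27.3% and 36.4%, against 6.18% and 17.1% of all tested genes), with a median log2 fold change of 0.05. *Slc2a2*, the GLUT2 glucose transporter, had 1739.5, 1356, 2083 and 1472 CPM in beta cells and 61.7, 66.6 and 151 CPM in non-beta cells (log2 fold change 4.31 (SE 0.23)). *G6pc2*, the islet glucose-6-phosphatase, had 4464, 3096, 4798 and 3210.2 CPM against 159.7, 157 and 352 CPM (4.29 (SE 0.22)), and *Slc37a4*, the transporter that brings its substrate into the ER, rose 2.83-fold. *Hk1*, the low-*K*m hexokinase on the disallowed list, went the other way, with 0.205, 0.396, 0.721 and 0.109 CPM in beta cells and 77.6, 64.7 and 58 CPM in non-beta cells.

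Of 28 genes of glycolysis and pyruvate use, 2 were called higher and 2 lower (7.14% each, against 6.18% and 17.1% of all tested genes), with a median log2 fold change of 0.22. *Pcx*, pyruvate carboxylase, which feeds pyruvate into the tricarboxylic acid (TCA) cycle, had 274, 277, 244 and 163 CPM in beta cells and 29.4, 27.4 and 36.3 CPM in non-beta cells, 8.51-fold higher (adjusted *p*=5.21e-08, edgeR). *Ldha*, which makes lactate from pyruvate, had 0.341, 0, 0.0554 and 0.328 CPM in beta cells and 91.5, 47.1 and 58.3 CPM in non-beta cells, and *Pdk4*, a kinase that shuts pyruvate dehydrogenase, was 83.9-fold lower. *Eno2* rose 2.15-fold, a call that was lost without mouse 1 (log2 fold change 0.90). None of 17 TCA cycle genes was called by edgeR or DESeq2. Of the 17, 11 had an unadjusted *p* below 0.05, and 8 passed the adjusted *p* upwards and 2 downwards at any fold (15.6% and 21.3% of all tested genes did), from *Cs* (citrate synthase, −0.62) to *Fh1* (fumarate hydratase, 0.83). Leaving out mouse 3 called 1 TCA gene higher. Of 17 genes of NADH shuttles and glutamate metabolism, 2 were called higher and 2 lower (11.8% each, against 6.18% and 17.1% of all tested genes). *Gpd2* (1.03), the mitochondrial glycerol phosphate shuttle enzyme, and *Glul* (1.10), glutamine synthetase, were called higher close to the threshold. Under the alternatives 0 to 3 genes of the list were called higher. *Glud1* (glutamate dehydrogenase) had 128, 115, 119.8 and 109.8 CPM in beta cells and 306, 300.0 and 313 CPM in non-beta cells, 2.51-fold lower.

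Of 82 tested nuclear genes for oxidative phosphorylation subunits, 2 were called higher and 1 lower. These were 2.44% and 1.22%, against 6.18% and 17.1% of all tested genes. The median log2 fold change of the list was 0.17 and ranged from 0.05 to 0.29 over the alternatives. *Cox6a2*, an isoform of a cytochrome *c* oxidase subunit known from heart and skeletal muscle, had 75.9, 48, 37.1 and 58.9 CPM in beta cells and 1.84, 0.847 and 3.06 CPM in non-beta cells, 28.2-fold higher. *Cox4i2*, an isoform of another subunit, was at 0 counts in beta cells and 3.62 ± 0.15 CPM in non-beta cells (SD, *n*=3), a call lost with DESeq2 and without mouse 1, 2 or 3. Of the 7 tested mitochondrially encoded genes, 1 (*mt-Nd6*, 2.76-fold) was called higher (14.3%, against 6.18% of all tested genes). Mitochondrial genes took 0.669% of counts in the beta cells of mouse 2 and 2.11% to 2.4% in those of the other mice. Without mouse 2 the count called higher was 6 of 7. It was 0 without mouse 3, with only the 7 libraries and the block, with glmTreat, and with the supplementary table's naming of the beta fractions.

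Of 32 channel genes 6 were called higher and 9 lower (18.8% and 28.1%, against 6.18% and 17.1% of all tested genes), with a median log2 fold change of 0.33, and glmTreat called 2 of them higher. *Trpm5*, a cation channel opened by calcium, had 162, 196, 184 and 168 CPM in beta cells and 6.48, 4.13 and 14.8 CPM in non-beta cells (23.6-fold). *Kcnma1*, a large-conductance potassium channel, rose 2.84-fold and *Cacna1d*, an L-type calcium channel, 2.13-fold, the latter below 2-fold without mouse 1 or mouse 3. The subunits of the ATP-sensitive potassium channel, known from several islet cell types, were not called: *Kcnj11* had 159 ± 25 CPM in beta cells (SD, *n*=4) and 146 ± 26.6 CPM in non-beta cells (SD, *n*=3), a log2 fold change of 0.23 (SE 0.11), and *Abcc8* one of 0.62 (SE 0.13). *Abcc8* passed the adjusted *p* but not the fold threshold, and its groups did not overlap. *Kcnk3*, a background potassium channel, had 3.89, 2.98, 3.44 and 2.76 CPM against 72.9, 99.2 and 71.9 CPM, 23.9-fold lower. *Ano1*, a chloride channel, was at most 0.191 CPM in beta cells and 66.2, 42.9 and 33.9 CPM in non-beta cells.

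Receptors gave calls in both directions, 15 higher and 12 lower of 33 tested (45.5% and 36.4%, against 6.18% and 17.1% of all tested genes). *Glp1r*, the receptor of the incretin GLP-1, had 1362, 1317, 1590.5 and 933 CPM in beta cells and 51.5, 62.2 and 117 CPM in non-beta cells (log2 fold change 4.27 (SE 0.21)). *Prlr*, the prolactin receptor, had 855, 983, 1010.1 and 788 CPM against 36.7, 33.9 and 73.4 CPM (4.38 (SE 0.22)), and *Gcgr*, the glucagon receptor, 12.3, 20.3, 16.6 and 43.4 CPM against 0.367, 0.265 and 1.42 CPM (4.67 (SE 0.42)). The groups did not overlap for any of these genes, of which *Prlr* shares 203 exonic bases with *Gm21973* on its strand. *Ffar1*, a fatty acid receptor, rose 7.06-fold, *Chrm3*, the muscarinic receptor for acetylcholine, 9.83-fold, *P2ry1*, a purine receptor, 7.4-fold, *Galr1*, a galanin receptor, 14.4-fold, *Gabbr2*, a GABA-B receptor subunit, 6.22-fold, *Ghr*, the growth hormone receptor, 3.16-fold and *Igf1r* 2.62-fold. *Gipr*, the receptor of the incretin GIP, had 31.8, 30.4, 33 and 227 CPM in beta cells, with mouse 4 far above the others, and 9.74, 9.85 and 10.5 CPM in non-beta cells. Its log2 fold change was 1.67 with the mouse as a block and 3.01 without it, and the call was lost in the latter fit. *Insr*, the insulin receptor, had a fitted log2 change of −0.07 (SE 0.10) (adjusted *p*=0.614, edgeR), and its sign turned with upper-quartile scaling. Among the receptors called lower, *Avpr1b* (vasopressin) had 1.21 ± 0.861 CPM in beta cells (SD, *n*=4) and 63.7 ± 18.3 CPM in non-beta cells (SD, *n*=3), *Adcyap1r1* (PACAP) was 92.7-fold lower and *Gria2* (an AMPA glutamate receptor subunit) 2.99-fold lower.

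**Figure D3:**
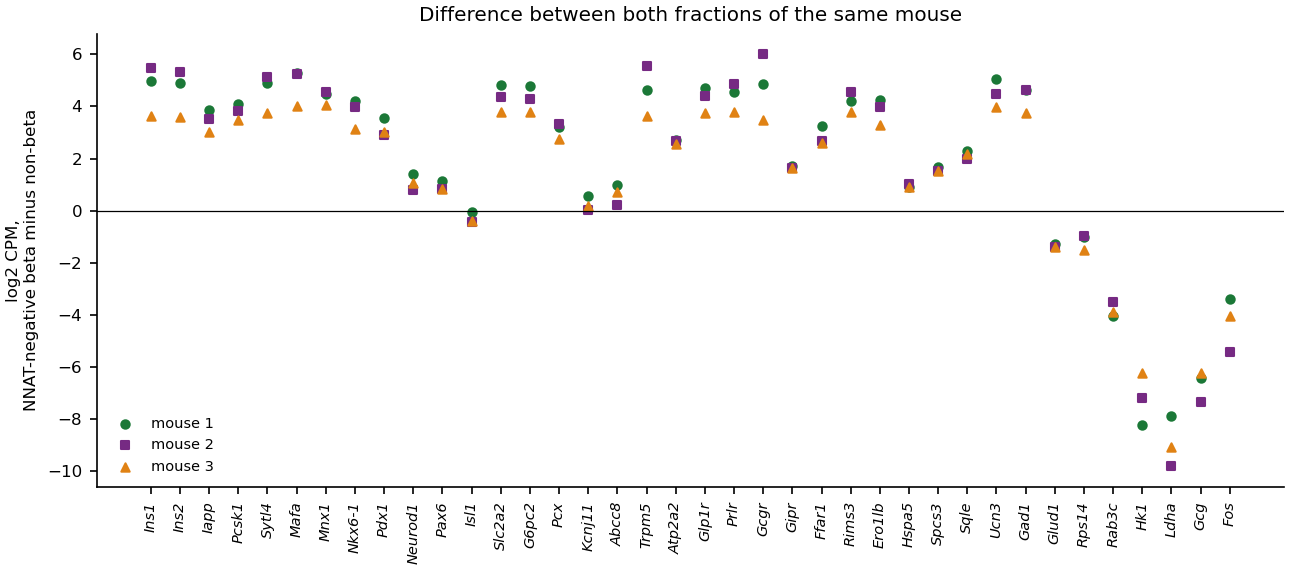
Difference in log2 CPM (prior count 2), beta minus non-beta, within each of mice 1 to 3 for the named genes on the horizontal axis. *Ins1*, *Mafa*, *Slc2a2* and *Glp1r* lie between 3 and 6 in all 3 mice, with mouse 3 lowest, *Isl1* and *Kcnj11* lie near 0, and *Ldha*, *Hk1* and *Gcg* lie below −5 in all 3 mice.

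In cAMP signalling, which carries the signal of several of these receptors, 3 of 27 genes were called higher and 8 lower (11.1% and 29.6%, against 6.18% and 17.1% of all tested genes). *Adcy9* (an adenylyl cyclase, 1.44), *Prkar2b* (a regulatory subunit of protein kinase A, 1.68) and *Creb3l1* (a transcription factor of the CREB3 family held in the ER membrane, 1.22) were higher. *Gnas*, which encodes the stimulatory G protein, had 1119, 1141, 1182 and 860.5 CPM in beta cells and 3108, 3971 and 3903 CPM in non-beta cells, 3.16-fold lower, at a locus where 1469 exonic bases are shared with *Gm20721* on the opposite strand. *Adcy5*, another adenylyl cyclase, was 41.9-fold lower.

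Of 31 tested genes of vesicle exocytosis 11 were called higher and 2 lower (35.5% and 6.45%, against 6.18% and 17.1% of all tested genes). The median log2 fold change of the list was 0.71, and glmTreat called 6 higher and 1 lower. *Syt13* (3.3-fold) and *Syt4* (3.95-fold), synaptotagmins, *Sv2a*, a vesicle glycoprotein (4.35-fold) and *Pclo*, an active zone scaffold (6.35-fold), were higher. *Rims3*, a small active zone protein named for its small *p*, had 222, 221, 219 and 247 CPM in beta cells and 11.9, 9.27 and 15.7 CPM in non-beta cells, 18.2-fold higher. *Rab3c*, a vesicle GTPase, went the other way with 3.44, 5.02, 2.77 and 3.42 CPM against 57.8, 57.3 and 42.2 CPM, 14.3-fold lower. *Stx1a*, a syntaxin of the plasma membrane, was 2.38-fold lower at under 20 CPM in all 7 libraries, and this call was lost without mouse 3 (log2 fold change −1.15) and with only the 7 libraries in the fit. *Cplx2*, a complexin, had a fitted log2 change of 0.17 (SE 0.12) (adjusted *p*=0.267, edgeR).

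The early secretory pathway was higher over most of its members. Of 36 genes of ER import, signal peptidase and glycosylation, 9 were called higher and 0 lower (1 lower with DESeq2). The share called higher was 25%, against 6.18% of all tested genes. At any fold, 32 of the 36 passed the adjusted *p* upwards and 1 downwards, against 15.6% and 21.3% of all tested genes. All 3 small signal peptidase subunits rose, *Spcs3* with 645, 630.4, 703 and 534 CPM in beta cells against 204, 217 and 247 CPM in non-beta cells (3.0-fold), *Spcs2* 2.48-fold and *Spcs1* 2.34-fold, as did *Sec11c*, a catalytic subunit (2.66-fold). *Srpr*, the receptor of the signal recognition particle, rose 2.6-fold, *Magt1*, an oligosaccharyltransferase subunit, 3.09-fold, and *Rpn2*, another subunit of that complex, 2.43-fold.

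Of 35 ER chaperones, oxidoreductases and genes of the unfolded protein response, 17 were called higher and 1 lower. These were 48.6% and 2.86%, against 6.18% and 17.1% of all tested genes. The median log2 fold change was 0.97, and 30 of the 35 passed the adjusted *p* upwards at any fold (15.6% of all tested genes did). The test of change beyond 2-fold called 7 of them higher and 0 lower. *Ero1lb*, the pancreatic oxidase that drives disulphide formation, had 3910.1, 4076, 4039.9 and 3902 CPM in beta cells and 204, 259 and 414 CPM in non-beta cells, that is, 3.83 (SE 0.19) on the log2 scale (adjusted *p*=1.90e-07, edgeR). *Wfs1*, mutated in Wolfram syndrome, rose 3.73-fold, *Sdf2l1* 3.64-fold and *Hyou1*, an ER chaperone, 3.44-fold. *Hspa5* (BiP), the main ER chaperone, had 2214, 2162, 2521 and 2612 CPM against 1177, 1065 and 1330.0 CPM, 1.95 times the non-beta level and short of the threshold. *Ppp1r15a* (GADD34), which is induced late in the stress response, was lower (31.5, 19.4, 28.8 and 63.7 CPM against 73.6, 48 and 55 CPM). Its groups overlapped through the beta cells of mouse 4, and its call was lost without the mouse block (log2 fold change −0.71). In transport from ER to Golgi, 6 of 40 genes were called higher and 2 lower. Their shares were 15% and 5%, against 6.18% and 17.1% of all tested genes. At any fold, 33 of the 40 passed the adjusted *p* upwards, and glmTreat called 2 higher and 0 lower. *Lman1*, a cargo receptor, rose 3.26-fold and *Sec16b*, of ER exit sites, 6.68-fold, while *Kdelr3* (3.23-fold) and *Tmed6* (2.59-fold) were lower at under 50 CPM in each library.

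Cytosolic ribosomal protein genes went the opposite way. All 79 had a negative log2 fold change, and 28 were called lower (35.4%, against 17.1% of all tested genes). At any fold, 69 of the 79 passed the adjusted *p* downwards (21.3% of all tested genes did). The median was −0.89 and stayed between −1.01 and −0.76 under the alternatives, with every scaling. Their summed level was 9477, 10804, 8781 and 6976 CPM in the beta cells of mice 1 to 4 and 17726, 16227 and 18878 CPM in non-beta cells. *Rps14* had 260.2, 266, 212 and 148 CPM against 518, 519 and 596 CPM, and *Rps4x* 231, 244, 208 and 166 CPM against 555, 499 and 503 CPM. These differences were near 2-fold, so 3 of the 28 calls held in the test of change beyond 2-fold. Ribosomal protein genes have many near-identical copies in the genome, and how reads were split among them is uncertain. In cholesterol synthesis and uptake, another pathway of the ER membrane, all 28 genes had a positive log2 fold change and 10 were called higher. Those 10 were 35.7% of the list, against 6.18% of all tested genes. *Msmo1* rose 4.66-fold, *Sqle* (squalene epoxidase) 4.46-fold and *Insig1*, which holds back sterol synthesis when sterols are plentiful, 4.19-fold.

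**Figure D4:**
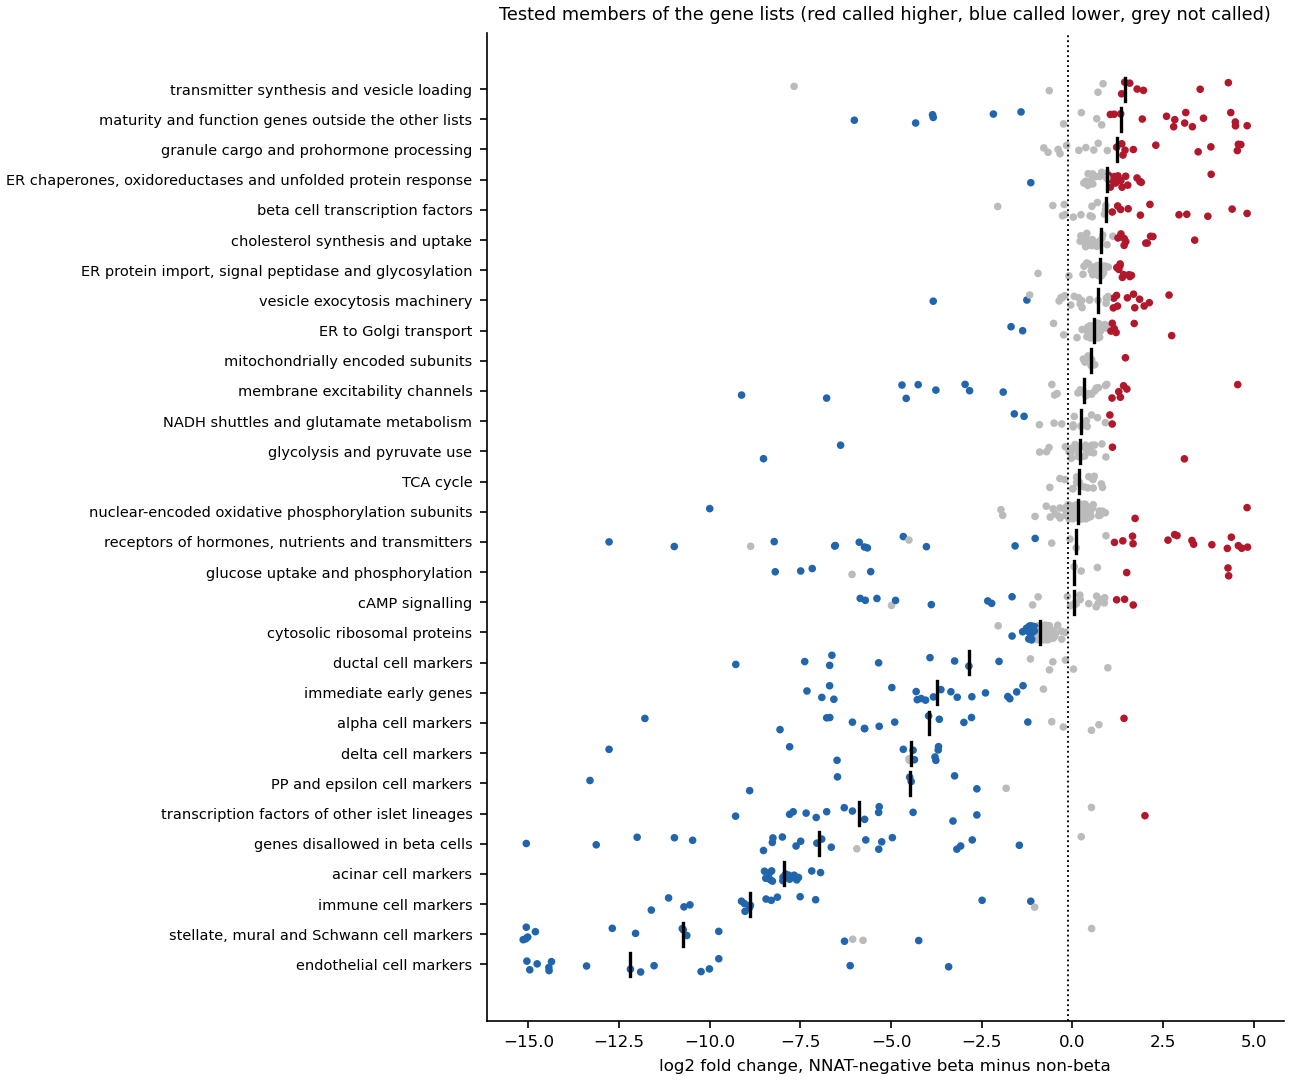
Log2 fold change, beta minus non-beta, of each tested member of the 30 gene lists, with a thick bar at the median of each list and a dotted line at the median of all tested genes (−0.127). ER, granule and cholesterol lists lie to the right of the dotted line, ribosomal proteins lie closely left of it, and lists of other cell types lie far to the left.

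Of 25 tested genes of beta cell maturity, function, immaturity or subgroups, 15 were called higher and 6 lower. These were 60% and 24%, against 6.18% and 17.1% of all tested genes. *Ucn3*, a peptide of mature beta cells, had 779.7, 656, 711 and 490.1 CPM in beta cells and 23.6, 29.3 and 44.5 CPM in non-beta cells (log2 fold change 4.50 (SE 0.20), adjusted *p*=1.14e-07, edgeR). *Spock2* (8.55-fold), *Gng12* (6.93-fold), *Tmem215* (22.5-fold), *Fam151a* (20.6-fold), *Ppp1r1a*, an inhibitor of protein phosphatase 1 (12.3-fold), and *Gjd2*, the connexin that couples beta cells (9.92-fold), rose. *Fam151a* shares 1263 exonic bases with *Acot11* on the opposite strand. *Npy*, a neuropeptide of immature beta cells, was also higher, with 6.58, 18.9, 13.9 and 9.37 CPM against 1.15, 1.96 and 1.13 CPM. The surface proteins *Cd24a* (20-fold), *Cd81* (14.5-fold) and *Cd9* (64.5-fold) and *Cltrn* (collectrin, 2.67-fold) were lower. *Cd81* is named in the paper as a marker of beta cell immaturity. Of 11 tested genes for making and loading transmitters, 7 were called higher and 0 lower (1 lower with DESeq2). The share called higher was 63.6%, against 6.18% of all tested genes. *Gad1*, which makes GABA, had 179, 169, 167 and 189.9 CPM in beta cells and 7.15, 6.83 and 12.4 CPM in non-beta cells (19.7-fold). *Th* (11.5-fold) and *Ddc* (2.99-fold), of dopamine synthesis, *Maob*, which degrades dopamine (3.45-fold), and *Slc18a1*, a vesicular monoamine transporter (3.89-fold), rose.

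Among genes lower in beta cells, 22 of 24 disallowed genes were called lower (91.7%, against 17.1% of all tested genes) and 0 higher. The median log2 fold change of the 24 genes was −6.98. Their summed level was 63.7, 61.7, 53.8 and 46.5 CPM in beta cells and 2257, 1264 and 1230.2 CPM in non-beta cells. *Slc16a1*, the lactate and pyruvate carrier, had 0, 0, 0.333 and 0.082 CPM against 22.1, 17.5 and 14.6 CPM. *Oat*, ornithine aminotransferase, was 31.2-fold lower and *Igfbp4*, a binding protein of insulin-like growth factors, 309-fold lower. Several members are also known from stromal or endothelial cells, and those markers were higher in the same non-beta libraries, and the part of these cells in the list was not tested.

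Of 19 alpha cell markers 14 were called lower and 1 higher, and of 12 tested delta cell markers 10 were called lower and 0 higher. The shares called lower were 73.7% and 83.3%, against 17.1% of all tested genes. *Ttr*, transthyretin, had 547, 533, 565 and 518 CPM in beta cells and 3655, 4211 and 5289.9 CPM in non-beta cells, 7.95-fold lower (*Gcg* was 103-fold lower, and the difference between both genes was not tested). The alpha marker called higher was *Tmem255a* (2.68-fold). *Rbp4*, retinol-binding protein, was 20.4-fold lower. Of 8 PP and epsilon cell markers 7 were called lower (87.5%), with *Ppy* 22.4-fold and *Pyy* 21.8-fold lower. For the hormones this left 27.9, 50.9, 50.3 and 56.6 CPM of *Ppy* in the beta cells of mice 1 to 4.

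All 15 endothelial markers, 16 of 17 immune markers and 13 of 16 stellate, mural and Schwann cell markers were called lower. Their shares were 100%, 94.1% and 81.2%, against 17.1% of all tested genes. *Kdr* (a VEGF receptor) had at most 0.58 CPM in beta cells and 565, 581 and 595 CPM in non-beta cells. *Cdh5* (VE-cadherin), at 0 counts in beta cells, had 135, 156 and 156 CPM in non-beta cells and was at least 1661-fold lower against the floor of 3 counts in each library. With the 7 endothelial genes at 0 set to that floor, the median of the list was −10.41 in place of −12.18. It was −8.30 in place of −8.88 for immune markers and −10.35 in place of −10.74 for stellate, mural and Schwann cell markers. *Cd74* (an immune antigen chaperone) had 2.39 ± 2.28 CPM in beta cells (SD, *n*=4) and 1070.1 ± 436 CPM in non-beta cells (SD, *n*=3). All 16 tested acinar markers were called lower. *Pnlip* (pancreatic lipase) had 7.44, 34.3, 20.2 and 83.6 CPM in beta cells and 3763, 14721 and 11638 CPM in non-beta cells, 3763 CPM in mouse 1 being the lowest of the latter. Without mouse 1 the count of acinar genes called was 3, and without mouse 3 it was 2, while the list median was between −8.65 and −7.06. Of 15 ductal markers 9 were called lower (60%), among them *Clu* (clusterin, 4.06-fold). *Krt7*, a keratin, instead had a log2 fold change of 0.98 (SE 0.11) and passed the adjusted *p* but not the fold threshold.

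The smallest *p* among genes called lower belonged to *Col4a1*, a basement membrane collagen, with 35.2, 32, 34.5 and 36.3 CPM in beta cells and 1184, 1109 and 1311 CPM in non-beta cells. *Gpx3*, a secreted glutathione peroxidase, was 29.1-fold lower, *Eef1a2*, a translation elongation factor, 68.4-fold lower and *Epas1* (HIF-2α, abundant in endothelium) 721-fold lower. *Epas1* had 291 ± 9.81 CPM in non-beta cells (SD, *n*=3) and 0.205, 0.365, 0.471 and 0.929 CPM in beta cells.

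Immediate early genes, which cells switch on within minutes of a stimulus or of handling, were also lower. With the mouse as a block, 19 of 20 were called lower (95%, against 17.1% of all tested genes) and 0 higher. The median log2 fold change was −3.73. *Fos* had 165, 26.3, 76.1 and 794 CPM in the beta cells of mice 1 to 4 and 1746, 1119 and 1262 CPM in non-beta cells, and *Jun* 83.9, 27.8, 47.7 and 648 CPM against 894, 569 and 708 CPM. *Egr1* (79, 14.8, 45.5 and 434 CPM) and *Dusp1* (29.3, 9.1, 18.1 and 183 CPM) were likewise highest in the beta cells of mouse 4, whose *Jun* level lay within the range of non-beta cells. The list summed to 789, 478, 599 and 3358 CPM in the beta cells of mice 1 to 4 and 7394, 4242 and 4705 CPM in non-beta cells. Without the block only 5 of the 20 were called lower, and without the block and without mouse 4 the count was again 19. Mouse 4 gave no non-beta library, so whether its non-beta cells had the same level is not known. Its NNAT-positive library was also high, with 965 CPM of *Fos* against 90.5 to 231 CPM in the NNAT-positive libraries of mice 1 to 3. For *Jun* these values were 780 CPM against 57.4 to 115 CPM.

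**Figure D5:**
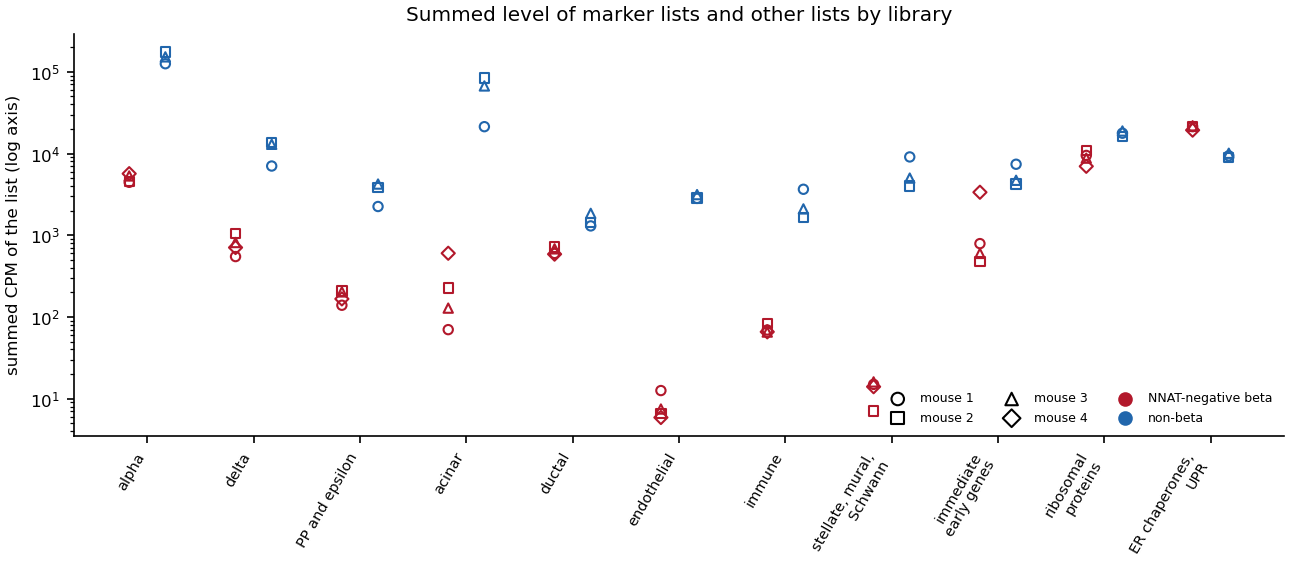
Summed CPM (log axis) of marker lists of other cell types, immediate early genes, ribosomal proteins and ER chaperones in each library, with a symbol for each mouse, red for NNAT-negative beta cells (*n*=4) and blue for non-beta cells (*n*=3). Ribosomal proteins and ER chaperones differ in opposite directions, and the beta cells of mouse 4 are nearest to non-beta cells in immediate early genes and acinar markers.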

How the data were processed

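RNA of cells sorted by FACS was sequenced from poly(A)-selected libraries made with a directional kit. Per the labels and the paper's methods, STAR 2.7.1a and mm10 served the authors for alignment, followed by counts per gene on gencode models, and they deposited whole-number counts of 55401 genes without normalisation. The strand setting of the counting is not given in the sources used here, so overlapping antisense genes cannot be told apart. The submitters' processing notes also list DESeq2 1.32.0, and a supplementary table of the paper holds the authors' fold changes, which were not used.

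Columns were matched to samples by their headers, and 0 columns were left unused for want of a sample. Counts were tested in edgeR 4.0.16 (R 4.3.3) by quasi-likelihood, with TMM scaling, and 17424 genes passed filterByExpr. The fit held all 11 libraries, with the mouse as a block, so mouse 4 bears on the contrast only through its beta cell fractions, whereas means of beta cells have *n*=4. Calls needed a Benjamini-Hochberg adjusted *p* below 0.01 and more than 2-fold. Each SE is the size of the log2 fold change over the root of its *F* statistic. Log2 CPM used a prior count of 2, and 3 counts, the floor, were 0.0648 to 0.102 CPM, which covers counting error only. The block rests on the methods, by which each replicate is an individual mouse, and on the replicate numbers of the labels. Deviations of the 3 pairs from their group means correlated by 0.0369 to 0.0651, and those of different mice by −0.0555 to 0.000641.

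The 30 gene lists and members were chosen with earlier results of these data known. Genes named were the markers, list members (first those called at the highest level, and those called against the majority of their list), and, in each direction, from the 15 smallest *p* and 10 largest changes with at least 10 CPM in the higher fraction and the same direction in 3 of 3 mice. *Ano1*, *Insr*, *Krt7* and other members not leading their list were named after their values were seen. Of rows sharing a symbol, that with the highest total was used. Coordinates and overlaps came from gencode release M21 (GRCm38), which held all 168 named genes, and promoters from RefSeq. Counts of this comparison were simulated with 200 genes changed (16807 tested), as many upwards as downwards, and no difference between mice. The data had far more calls, mostly downwards, so the simulation cannot say how scaling or false calls behave under that imbalance. Of genes changed 2-fold, 4-fold and 8-fold, edgeR recovered 9 of 50, 58 of 100 and 34 of 50, with 1 false call. DESeq2 recovered 14, 70 and 41 of these, with 29 false calls. A call needs an estimate above 2-fold, so genes changed exactly 2-fold can miss it whatever the power. Alternatives were DESeq2 1.42.0, other size factors and filters, other thresholds, fits without the block or with only the 7 libraries, the other naming of the beta cell fractions, and each mouse left out. Some list members are not reported here by name. Among named genes, *Neurod1*, *Kcnma1*, *P2ry1*, *Adgrl3* and others also share exonic bases with a neighbour, mostly on the opposite strand.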

Additional observations from a re-analysis of the deposited data

Results flagged for a closer look

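Among the 4 libraries of beta cells, 16 of 168 named genes had a library whose log2 CPM lay far from the other 3, by a ratio of gap to range above the 95% critical value of Dixon's test, of which chance gives about 1 in 20. The ratios are given with each gene. In mouse 4 *Gipr* was high (227 CPM against 30.4 to 33, ratio 0.959), as were *Pax6* (368 CPM against 283 to 289, ratio 0.925), *Oat* (6.07 CPM against 2.71 to 2.8, ratio 0.959) and *Rims3* (247 CPM against 219 to 222, ratio 0.883). Mouse 4 was low for *Pam* (640.3 CPM against 809.9 to 837, ratio 0.878), *Pdx1* (179.8 CPM against 256 to 269, ratio 0.876), *Kcnj11* (122 CPM against 166 to 175, ratio 0.852), *Tshz1* (153 CPM against 190.3 to 198, ratio 0.843) and *Cpe* (4816 CPM against 6258 to 6584, ratio 0.838). Mouse 1 was low for *Ppy* (27.9 CPM against 50.3 to 56.6, ratio 0.834), *Sytl4* (699 CPM against 756 to 767, ratio 0.841) and *Irx1* (0.0682 CPM against 0.638 to 0.913, ratio 0.838) and high for *Kdelr3* (7.37 CPM against 4.47 to 4.8, ratio 0.86). Mouse 2 was low for *Abcc8* (969.5 CPM against 1103 to 1119, ratio 0.905) and high for *Sec11c* (188 CPM against 149 to 155, ratio 0.844), and mouse 3 was high for *Chrm3* (72.4 CPM against 62.5 to 63.5, ratio 0.892). Mouse 4 was the library apart in 9 of the 16 genes. Its beta cells also had the lowest share of insulin reads (17.8%), the most genes detected (20434) and the highest sum of immediate early genes, and what these have to do with each other was not tested. Among libraries labelled NNAT-positive, that of mouse 4 likewise had the lowest share of insulin reads (18%) and the most genes detected (21731). Non-beta cells, with 3 libraries, were not examined in this way.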

How the results depend on the processing

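The number of genes called higher moved from 1076 to 552 in the test of change beyond 2-fold (glmTreat), all 552 among the 1076. It was between 909 and 1250 under the other alternatives, and that of genes called lower was 2211 with glmTreat and between 2317 and 3718 under the others, all within 1.5 times the values reported. Without the replicate block 1025 genes were higher and 3105 lower, and with DESeq2 1147 and 3433. Leaving out each mouse in turn gave 943 to 1077 higher and 2317 to 2732 lower. Without the block and without mouse 4, an alternative chosen after seeing the data, the counts were 1089 and 3024. No scaling moved the median of all tested genes by over 0.1 (log2), whereas leaving out the filter moved it by −0.162. Of 168 named genes, *Insr* reversed with upper-quartile factors (log2 fold change 0.016), and no other named gene changed sign under any alternative. Without the block 10 named genes lost their call, among them *Gipr*, *Fos*, *Jun*, *Egr1*, *Fosb*, *Dusp1* and *Ppp1r15a*, and *Pax6* gained one. The cause was not tested. Below the floor of 3 counts levels in beta cells have an upper limit and no estimate. Sorting was not replicated beyond 3 mice with both fractions, the non-beta fraction is a mixture, and the names of the beta cell fractions are in conflict between sources.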
